A study of Mus musculus with 10 samples.

Results

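The interleukin-1 (IL-1) family is a set of cytokines with the receptors that bind them. The 10 family genes described here, of 27151 genes measured, were chosen by name and not by their values. They are the ligand genes Il1a, Il1b, Il18 and Il33, the antagonist gene Il1rn, the receptor genes Il1r1, Il1rap, Il1rl1 and Il1rl2, and the decoy receptor gene Il1r2. All 10 passed the filter on low values and were tested. They were measured in tongue RNA of C57BL/6J mice. Both groups had received 4NQO, a chemical carcinogen used to produce tumours of the mouse mouth, so the controls carry that exposure as well. There were 4 vehicle libraries and 6 libraries treated with SP2509, an inhibitor of the histone demethylase LSD1 (gene Kdm1a). The titles of those 6 read SP2509h. What the h means, the doses, the times and the ages are not known from the sources used here.

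IL-1 alpha and IL-1 beta bind the receptor encoded by Il1r1, which recruits the shared accessory chain encoded by Il1rap and signals through MyD88 to NF-kB. IL-1 beta and IL-18 are made as precursors that inflammasome caspases cleave, while IL-33 and IL-1 alpha are held inside epithelial cells and released on damage. The antagonist occupies the receptor without signalling, and the decoy receptor binds IL-1 but lacks a signalling domain.

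In the SP2509 libraries the transcripts of the IL-1 ligands and their antagonist (Il1a, Il1b, Il1rn) stood above vehicle on average, while those of Il1r1, Il1rl1, Il1rl2 and the decoy stood below it. The ligand genes Il33 and Il18 also stood below vehicle (log2 fold change -0.43 and -0.24), and the receptor gene Il1rap stood near it (0.09). No member passed the test. Il1b, the gene of the main inflammatory ligand, had 1.90 times its vehicle mean and Il1rn had 2.17 times. Il1rl1, the receptor gene for IL-33, stood at 0.443 of its vehicle mean and the decoy gene Il1r2 at 0.514. At an adjusted p under 0.05, limma and edgeR each called 0 of the 10 members. Of all 17088 tested genes, limma called 4.95% higher and 4.15% lower, and edgeR called 8.76% in either direction. An unadjusted p under 0.05 was reached by 6 members in limma, Il1b and Il1rn in the higher direction and Il33, Il1r1, Il1r2 and Il1rl1 in the lower. The share of all tested genes at that threshold was 15.2% higher and 12.8% lower. DESeq2 called Il1rn higher and Il1r1 and Il1rl1 lower, and it called 17.6% of all tested genes. No member had groups free of overlap, against 11.7% of tested genes. The median log2 fold change was -0.29 over the members and 0.02 over all tested genes.

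The values are normalised reads, read counts divided by a size factor of each library. Libraries held 9180844 to 14768955 reads in vehicle and 15748571 to 19375555 in SP2509, and mitochondrial genes took 35.3% to 52.1% and 24.0% to 32.2% of them. SP2509 replicates 1 and 2, and replicates 4 and 5, lay closer to each other than any other pair within a group. For genes with 1000 to 5000 reads their median squared difference was 3.49 and 3.72 times the Poisson expectation, against 11.1 to 163 in the other pairs. Means and SDs of SP2509 are therefore over 4 units, with those pairs averaged, and an adjusted p with the pairs merged stands beside that of the 10 libraries. SP2509 replicate 3 counts as a unit of its own. It lay at 11.1 and 12.8 times the Poisson expectation from replicates 1 and 2, closer than any vehicle pair (23.1 to 56.1). Log2 fold changes and their SEs are over the 10 libraries unless another fit is named, and need not equal the log2 ratio of those means. No label ties each library to a separate mouse, and the p-values measure only how far these libraries differ, which may be technical. Over the table, limma called 846 genes higher and 709 lower. With the pairs merged it called 0 of each, with a lowest adjusted p of 0.0718 and 21.3% of genes at an unadjusted p under 0.05. Scaling to equal totals outside mitochondrial genes gave 296 higher and 1442 lower and moved the median of all genes by -0.15 on the log2 scale. Quantile normalization gave 666 and 1060. Keratinocyte marker sums (20 genes) were 117226 to 166063 normalised reads in vehicle. They were 314861, 306731 and 352306 in SP2509 replicates 1 to 3, 174315 and 173097 in replicates 4 and 5, and 73533 in replicate 6. None of the 20 was called (limma), 4 reached an unadjusted p under 0.05, and the list's median log2 fold change was 0.48. Other fits called more of them higher. DESeq2 called 5 (17.6% of all tested genes in either direction), and limma without SP2509 replicate 6 called 13 (11.5% of all tested genes higher). Over the 8 libraries that share a replicate number, 16 were higher with that number as a block and 14 without. Of all 17088 tested genes, 1158 and 1578 were higher in those 2 fits. Skeletal muscle markers (10 genes, none called, 6 at an unadjusted p under 0.05) summed to 174173 to 365571 in vehicle and 296559 to 780856 in SP2509, highest in replicate 6. Gland markers summed to 406128 and 419302 in SP2509 replicates 4 and 5, to 7957 in replicate 6 and to at most 622 elsewhere.

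The bases upstream of 4 members are shown: the 3 genes with the largest positive average difference, and Il1r2, the gene with the largest negative difference among receptors with a single RefSeq start. Each run is the 250 bases before a RefSeq transcript start (GRCm38.p6), read 5′ to 3′ on the gene's strand. The Il1a run is chr2:129309973-129310222 (minus strand) and the Il1b run chr2:129371140-129371389 (minus strand). The Il1rn run lies at the most upstream of its 3 starts, chr2:24336610-24336859 (plus strand), and the Il1r2 run at chr1:40085843-40086092 (plus strand). The Il1r2 run lies inside the annotated span of the gene (40074079 to 40125231), not upstream of it. Its first bases overlap the antisense gene Gm16894 (40076228 to 40085851). Capitals mark matches, on either strand, to TATAAA (the core promoter box), TGANTCA (the AP-1 element), TTCNNNGAA (the STAT element) or the NF-kB consensus.
Il1a: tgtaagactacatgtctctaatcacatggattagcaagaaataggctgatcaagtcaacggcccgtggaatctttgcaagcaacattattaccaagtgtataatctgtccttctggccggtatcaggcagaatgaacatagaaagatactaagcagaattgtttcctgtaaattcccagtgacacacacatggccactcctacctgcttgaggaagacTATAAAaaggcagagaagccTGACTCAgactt
Il1b: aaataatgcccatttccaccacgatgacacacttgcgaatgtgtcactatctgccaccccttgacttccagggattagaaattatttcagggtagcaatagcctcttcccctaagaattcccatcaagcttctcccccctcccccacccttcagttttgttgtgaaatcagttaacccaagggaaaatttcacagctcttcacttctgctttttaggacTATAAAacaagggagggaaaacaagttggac
Il1rn: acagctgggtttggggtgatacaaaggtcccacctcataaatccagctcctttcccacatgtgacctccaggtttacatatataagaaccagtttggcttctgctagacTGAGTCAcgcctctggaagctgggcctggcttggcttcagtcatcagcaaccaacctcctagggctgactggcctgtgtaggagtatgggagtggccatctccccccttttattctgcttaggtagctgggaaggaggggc
Il1r2: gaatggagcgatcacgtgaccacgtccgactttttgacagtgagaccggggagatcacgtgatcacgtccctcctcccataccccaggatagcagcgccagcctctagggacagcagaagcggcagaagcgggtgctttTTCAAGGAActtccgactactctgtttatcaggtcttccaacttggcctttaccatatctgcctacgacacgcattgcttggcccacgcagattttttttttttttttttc
The Il1a and Il1b runs each hold a TATAAA, at 32 and 31 bases before the start. Il1a also has a TGANTCA match at 12 bases, Il1rn has one at 141 bases, and Il1r2 has a TTCNNNGAA match at 111 bases. Of the 15 windows of the 10 members, TATAAA occurred in 6, from 5 genes (Il1a, Il1b, Il18, Il33 and Il1rl2). TGANTCA occurred in 2 of the 15, TTCNNNGAA in 1 and the NF-kB consensus in 1 (Il1r1). Over all 32817 windows of that length the shares were 12.4%, 6.75%, 7.01% and 7.25%. A match is a run of letters in this window and describes no binding.

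Il1b (chromosome 2, 129364570 to 129371139, minus strand, GRCm38) was measured on 47 reads over the vehicle libraries and 213 over the SP2509 libraries. Its normalised reads were 7.42, 15.4, 11.3 and 22.4 in vehicle replicates 1 to 4. In SP2509 they ran from 22.0 to 40.4 with a median of 27.2. The SP2509 libraries were the high ones: 5 of 6 exceeded every vehicle library, and replicate 6 lay just under vehicle replicate 4. The mean went from 14.1 ± 6.43 (SD, n = 4) to 26.9 ± 5.65 (SD, n = 4 units). The log2 fold change over the 10 libraries was 1.03 ± 0.34 (SE, adjusted p by limma = 0.0708, with the pairs merged 0.201). With 1 library left out, the adjusted p by limma ran from 0.0496 (without SP2509 replicate 6) to 0.18 (without vehicle replicate 1). Only the fit without SP2509 replicate 6 gave a value under 0.05, and it called 11.5% of all tested genes higher. In bulk tissue, more cells of a type and more RNA per cell cannot be told apart. Neutrophil markers, of which 4 were tested and none called by limma (2 at an unadjusted p under 0.05), had sums of 279 to 1613 in the vehicle libraries and 2370 to 8570 in the SP2509 libraries. S100a8 and S100a9, which keratinocytes also make, held most of that sum outside SP2509 replicates 4 and 5, where Ltf, also a gland product, reached 1813 and 1920. The neutrophil receptor gene Csf3r averaged 36.0 ± 19.2 and 35.1 ± 5.25 normalised reads (SD, n = 4 libraries and 4 units). Of the 15 neutrophil markers listed, 12 were found among the genes measured, and the defining genes Ly6g and Mpo were not. The part of these markers in the Il1b difference was not tested. The antisense gene Il1bos overlaps Il1b, with 22 vehicle and 26 SP2509 reads of its own. Since the strand setting of the counting is not given, reads of an overlap cannot be assigned with certainty.

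Il1a (chromosome 2, 129299610 to 129309972, minus strand), the gene of the membrane and nuclear form of the ligand, was the lowest member, with 19 vehicle and 99 SP2509 reads. Normalised reads were 3.71, 0, 11.3 and 8.08 in vehicle replicates 1 to 4. SP2509 libraries ran from 3.26 to 28.8 with a median of 12.2, and the replicates were split. Replicates 1 to 3, with 18.6, 19.8 and 28.8, lay above every vehicle library, and replicates 4 to 6, with 5.81, 4.36 and 3.26, lay within the vehicle range. The log2 fold change was 1.22 ± 0.81 (SE; adjusted p by limma = 0.345). Without vehicle replicate 2, the library with no Il1a read, it was 0.46 (adjusted p by limma = 0.702). The overlapping transcript Gm14023 on the other strand had 17 and 61 reads, so the 2 genes are uncertain at this depth. Replicates 1 to 3 are also the libraries with the highest keratinocyte sums. With the keratinocyte marker mean of each library as a covariate the log2 difference of Il1a was 0.68 ± 0.80 (SE; adjusted p by limma = 0.598).

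Il33 (chromosome 19, 29925114 to 29960718, plus strand), the gene of the nuclear alarmin, was well covered, with 1017 and 1933 reads. It had 339, 424, 387 and 254 normalised reads in vehicle replicates 1 to 4, and 199 to 330 with a median of 254 in SP2509. Most SP2509 libraries lay low, but vehicle replicate 4 lay among them and SP2509 replicate 3 lay close to vehicle replicate 1. The means were 351 ± 73.3 (SD, n = 4) and 260 ± 54.4 (n = 4 units). The log2 fold change over the 10 libraries was -0.43 ± 0.17 (SE, adjusted p by limma = 0.119). Il18 (chromosome 9, 50554827 to 50581840, plus strand), whose product drives interferon gamma release, had 31.0 ± 7.94 and 27.4 ± 6.83 normalised reads. It rested on 15, 23, 28 and 24 reads in vehicle replicates 1 to 4 and on 23 to 45 reads per SP2509 library. Its libraries ran from 21.5 to 39.4 in vehicle and from 19.0 to 36.6 in SP2509, so the groups covered nearly the same range (log2 fold change -0.24 ± 0.28, limma adjusted p = 0.619). Leaving out 1 library moved it to between -0.39 and -0.11. The start of Il18 overlaps Bco2 on the other strand, which had 20 and 52 reads.

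Il1rn (chromosome 2, 24336853 to 24351494, plus strand) encodes the receptor antagonist, in secreted and intracellular forms that gene-level counts do not separate. Vehicle replicates 1 to 4 had 102, 138, 163 and 119 normalised reads. SP2509 libraries ran from 122 to 473 with a median of 288. Replicates 1 to 3 were far above vehicle at 455, 473 and 380, replicate 4 was somewhat above at 196, and replicates 5 and 6, at 142 and 122, lay inside the vehicle range. The mean went from 131 ± 26.3 (SD, n = 4) to 284 ± 164 (SD, n = 4 units). The log2 fold change over the 10 libraries was 0.98 ± 0.38 (SE, adjusted p by limma = 0.12, with the pairs merged 0.208). DESeq2 on all 10 libraries called Il1rn higher (adjusted p = 0.0238), in a fit that called 17.6% of all tested genes. In limma with 1 library left out, Il1rn was called only without SP2509 replicate 6. The log2 fold change was then 1.19 and the adjusted p by limma 0.0362. In that fit 11.5% of all genes and 13 of the 20 keratinocyte markers were called higher. SP2509 replicate 6 had the lowest keratinocyte sum and the highest muscle sum, and the cause of its Il1rn value was not tested. With the keratinocyte marker mean of each library as a covariate the log2 difference of Il1rn was 0.54 ± 0.25 (SE, limma adjusted p = 0.158). With that covariate and without SP2509 replicate 6 it was 0.23 (limma adjusted p = 0.695). Without that replicate the groups did not overlap on the covariate, so the fit cannot separate treatment from keratinocyte content.

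**Figure D1:**
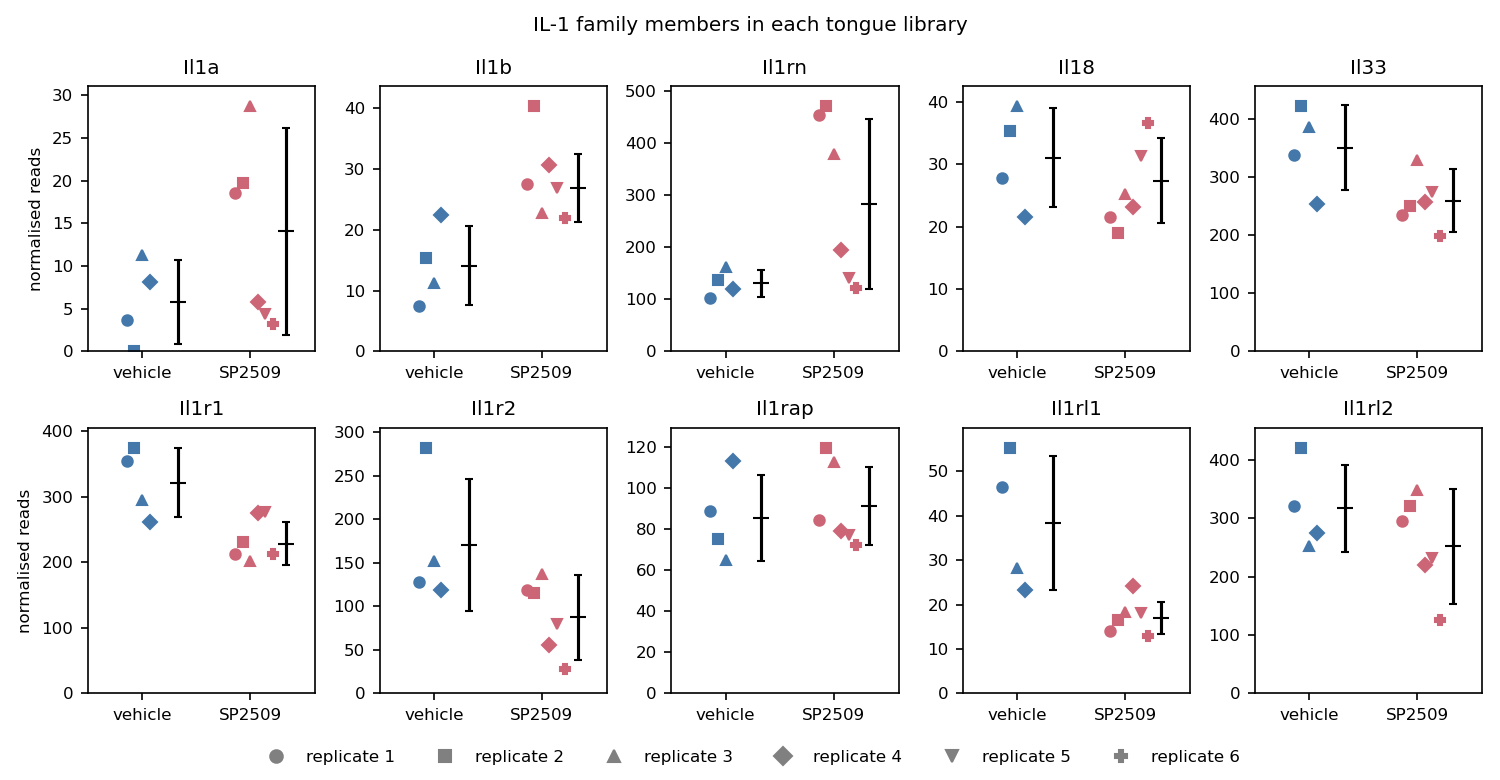
Normalised reads (linear axis from 0) of the 10 members in each library, vehicle in blue and SP2509 in red, with the symbol giving the replicate number. The bar beside each group is the mean ± SD, over 4 vehicle libraries or 4 SP2509 units. Il1b, Il1rl1 and Il1r2 have 5 of 6 SP2509 libraries beyond all vehicle libraries, while Il1a and Il1rn separate SP2509 replicates 1 to 3 from the others.

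The balance of antagonist and ligand was compared within each library. The log2 ratio of Il1rn to Il1b (pseudocount 1) ran from 2.36 to 3.74 in vehicle and from 2.36 to 4.01 in SP2509. The mean difference between groups was -0.03. For Il1rn over Il1a the mean difference was -0.30, with vehicle libraries at 3.73 to 7.12 and SP2509 at 3.68 to 4.85. The highest vehicle ratio belongs to replicate 2, where no Il1a read was counted, so its value is set by the pseudocount and that library's scaling. The ratios are given without a test.

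Il1r1 (chromosome 1, 40225080 to 40317257, plus strand), the signalling receptor gene, was measured on 935 and 1770 reads. Its normalised reads were 354, 375, 294 and 261 in vehicle replicates 1 to 4, and 203 to 277 with a median of 222 in SP2509. SP2509 replicates 4 and 5, at 275 and 277, overlapped vehicle replicate 4, and the other 4 lay below every vehicle library. The means were 321 ± 52.5 (SD, n = 4) and 228 ± 32.8 (n = 4 units). The log2 fold change over the 10 libraries was -0.45 ± 0.15 (SE, adjusted p by limma = 0.0712, with the pairs merged 0.142). DESeq2 gave an adjusted p of 0.0323. With equal totals outside mitochondrial genes limma gave 0.0271, at a difference of -0.47 from the median of all genes, and it called 8.44% of tested genes lower. The accessory chain gene Il1rap (chromosome 16, 26581704 to 26730117, plus strand) spanned 64.8 to 113 in vehicle libraries and 72.4 to 120 in SP2509 libraries, with means of 85.5 ± 20.9 and 91.2 ± 19.2. Its log2 fold change was 0.09 ± 0.22 (SE; adjusted p by limma = 0.828), and the sign turned under equal totals, in the fits with a keratinocyte covariate and without vehicle replicate 3.

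Il1rl1 (chromosome 1, 40429570 to 40465415, plus strand) encodes ST2, the IL-33 receptor of mast cells, type 2 lymphoid cells and regulatory T cells, with a soluble form that these counts do not separate. It rested on 107 and 130 reads. Vehicle replicates 1 to 4 had 46.4, 55.3, 28.2 and 23.3 normalised reads, and SP2509 libraries had 13.0 to 24.1 with a median of 17.3. The SP2509 libraries were uniformly low, with 5 of 6 under every vehicle library and replicate 4 just above vehicle replicate 4. The mean went from 38.3 ± 15.1 (SD, n = 4) to 17.0 ± 3.53 (SD, n = 4 units). The log2 fold change over the 10 libraries was -1.04 ± 0.31 (SE, adjusted p by limma = 0.0577, edgeR 0.0554, DESeq2 0.011, limma with the pairs merged 0.14). Mast cell and type 2 lymphoid markers, of which 10 were tested, gave 0 calls and 0 at an unadjusted p under 0.05 (limma), and had sums of 566 to 780 in vehicle libraries and 589 to 870 in SP2509 libraries. Endothelial markers, another ST2 source, summed to 9186 to 14546 and 10394 to 13449. Of these 10 genes limma called 1 lower, Egfl7 (log2 fold change -0.77 ± 0.14, adjusted p = 0.0136, with the pairs merged 0.0732), and 2 were lower at an unadjusted p under 0.05. The shares of all tested genes were 4.15% and 12.8%. The sums of both lists covered overlapping ranges in the groups, and the part of endothelial content in the Il1rl1 difference was not tested.

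Il1r2 (chromosome 1, 40074079 to 40125231, plus strand), the decoy receptor gene, had 494 and 669 reads. Its normalised reads were 128, 283, 152 and 119 in vehicle replicates 1 to 4. SP2509 libraries ran from 28.5 to 137 with a median of 97.7. In SP2509 5 of 6 lay under every vehicle library, replicates 1 and 2 only just (119 and 115) and replicates 4 to 6 clearly (55.6, 80.0 and 28.5), while replicate 3 had 137. The means were 171 ± 76.0 (SD, n = 4) and 87.7 ± 49.0 (n = 4 units). The log2 fold change over the 10 libraries was -1.01 ± 0.41 (SE, adjusted p by limma = 0.135, with the pairs merged 0.217). The antisense gene Gm16894 overlaps it with 14 and 26 reads. The log2 ratio of Il1r2 to Il1r1 was -1.46 to -0.41 in vehicle and -2.86 to -0.56 in SP2509, a mean difference of -0.60 with overlapping groups.

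Il1rl2 (chromosome 1, 40324610 to 40367562, plus strand), the IL-36 receptor gene of keratinocytes, had 321, 421, 252 and 275 normalised reads in vehicle and 125 to 348 with a median of 264 in SP2509. The 2 groups overlapped broadly, with SP2509 replicate 6 the lowest library of all. The means were 317 ± 74.8 (SD, n = 4) and 252 ± 98.7 (n = 4 units). The log2 fold change over the 10 libraries was -0.35 ± 0.26 (SE, adjusted p by limma = 0.407). It was -0.16 without SP2509 replicate 6 and -0.20 without vehicle replicate 2. A processed pseudogene, Gm17970, lies inside it and had 1 and 15 reads.

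**Figure D2:**
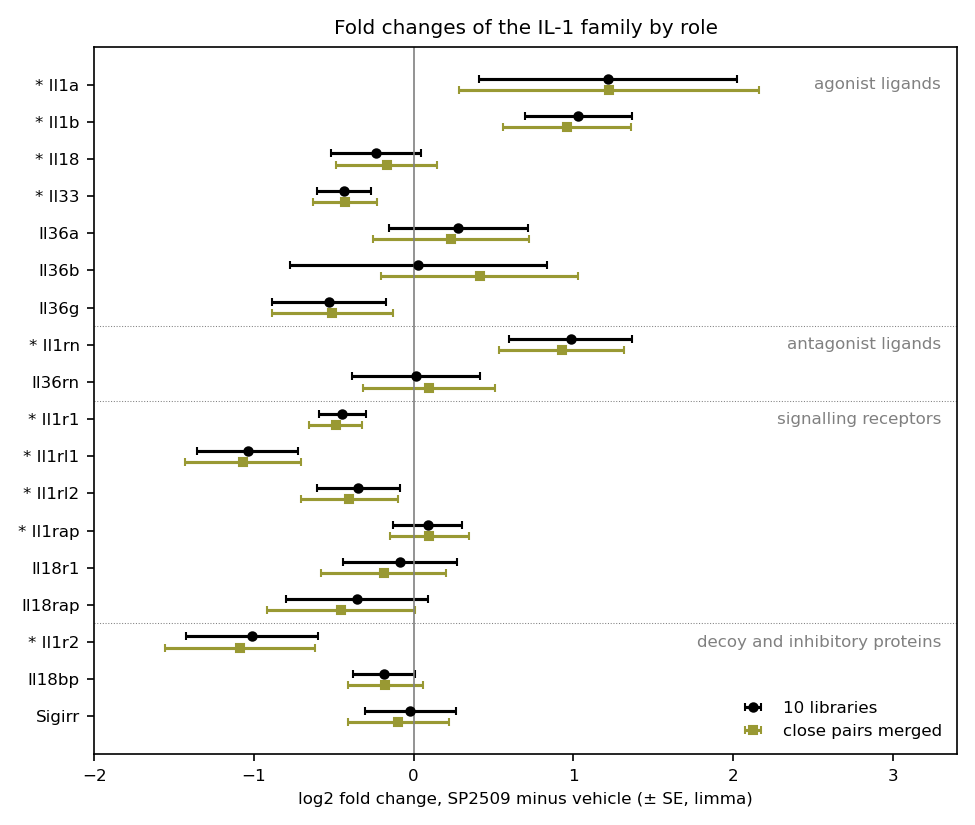
Log2 fold change of SP2509 against vehicle with its SE (limma) for the 10 members, marked by a star, and the 8 other family genes tested, grouped by role. Black circles are the 10 libraries and green squares the fit with close pairs merged. Il1a, Il1b and Il1rn lie right of 0, and Il1r1, Il1rl1 and Il1r2 lie left of it, with no adjusted p under 0.05 in either fit.

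All 10 members were also fitted beside the keratinocyte content of each library, because the keratinocyte sums differ by library. Il1r2 and Il1rl2, both expressed by keratinocytes, are given in detail as the members called in every such fit. With the mean log2 value of the 20 keratinocyte markers as a covariate, both fell. Il1r2 fell by 1.51 on the log2 scale (SE 0.25, limma adjusted p = 0.00527) and Il1rl2 fell by 0.68 (SE 0.13, limma adjusted p = 0.00746). With the close pairs merged, the adjusted p-values were 0.0227 and 0.0284. On 9 libraries without SP2509 replicate 6 they were 0.0126 and 0.0289. In that 9-library fit the groups did not overlap on the covariate, at 11.60 to 12.00 in vehicle and 12.10 to 13.09 in SP2509. Its values rest on a slope extended between the groups. It cannot separate treatment from keratinocyte content and is no check on the 2 falls. The merged and the 9-library covariate fits were chosen after seeing the data. In the first covariate fit limma called 7.05% of all genes lower, in the merged one 3.21% and in the 9-library one 7.31%. The members called in the first were 4 of 10, all lower. They were Il1r2, Il1rl2, Il33 (adjusted p = 0.0479, 0.1 merged) and Il1rl1 (0.0477, 0.0853 merged).

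The groups differ in where they lie on the covariate. The marker mean was 11.60 to 12.00 in vehicle, 12.11 and 12.10 in SP2509 replicates 4 and 5, 12.93 to 13.09 in replicates 1 to 3 and 10.93 in replicate 6. Only replicates 4 and 5, a close pair counted as 1 unit, came near the vehicle level, and for the others the fit extends beyond the vehicle range. At that level Il1r2 had 55.6 and 80.0 normalised reads against 119 to 283 in vehicle, and Il1rl2 had 220 and 232 against 252 to 421. SP2509 replicates 4 and 5 also had gland marker sums of 406128 and 419302, against at most 622 in vehicle, so they differ from vehicle in content. As a description of the same 10 libraries, and no separate support, the Il1r2 value minus the keratinocyte marker mean, on the log2 scale, was -4.99, -3.85, -4.34 and -4.91 in vehicle replicates 1 to 4 and lay between -6.29 and -5.76 in all 6 SP2509 libraries, with a median of -6.04. For Il1rl2 the difference was -3.67, -3.27, -3.61 and -3.72 in vehicle and -4.73 to -3.95 in SP2509, with a median of -4.46. Neither gene's groups overlapped on this scale, which lowers every gene in SP2509 replicates 1 to 3 by construction. Groups lay apart in the lower direction for 1.77% of all tested genes, and for no other member. Il1r1, for example, ran from -3.79 to -3.39 in vehicle and from -5.42 to -3.19 in SP2509, where replicate 6 was the exception. The covariate describes the level beside the markers and does not tell a lower share of expressing cells from a lower level per cell.

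**Figure D3:**
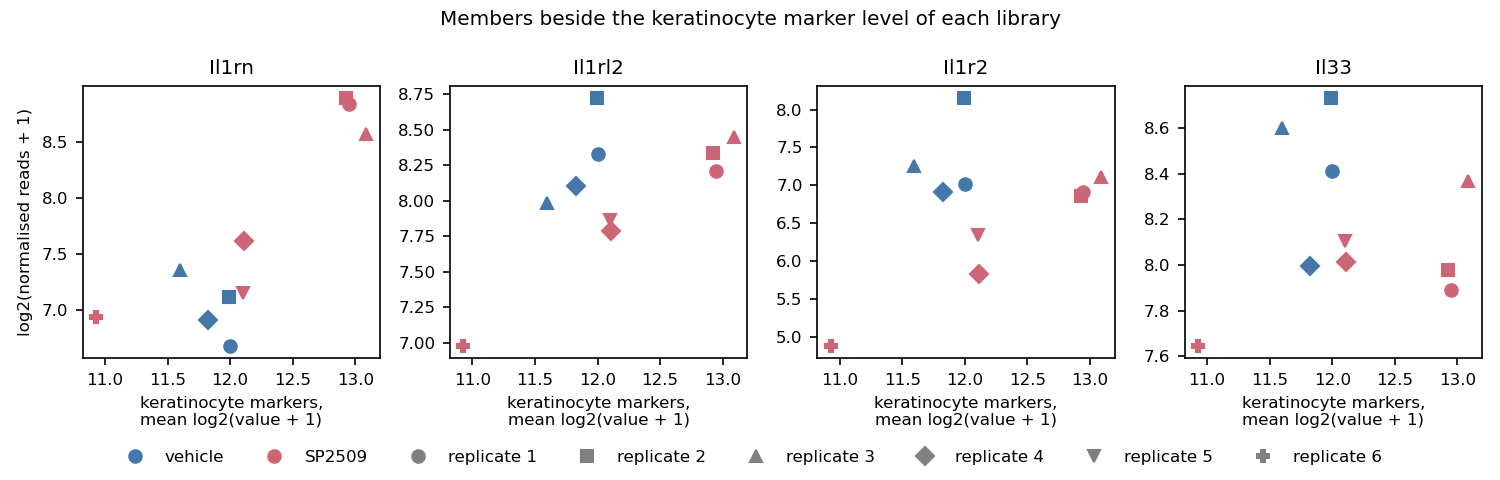
Each library's log2(normalised reads + 1) of Il1rn, Il1rl2, Il1r2 and Il33 (vertical axes, which do not start at 0) against the mean log2 value of 20 keratinocyte markers (horizontal axes), vehicle in blue and SP2509 in red, with 1 symbol per replicate number. SP2509 replicates 4 and 5, the only SP2509 libraries near the vehicle marker level, lie below all vehicle points for Il1r2 and Il1rl2. They are also the libraries with the highest gland marker sums. SP2509 replicate 6 is at the low end of both axes.

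Transcript levels were compared between members only per kilobase of exon. In vehicle Il33 was highest at 122 ± 25.4 normalised reads per kb (SD, n = 4), followed by Il1r2 at 89.4 ± 39.8, Il1r1 at 50.5 ± 8.25, Il1rl2 at 46.5 ± 11.0, Il18 at 30.1 ± 7.70 and Il1rn at 23.6 ± 4.75. Il1rap at 7.53 ± 1.84, Il1b at 7.40 ± 3.37, Il1rl1 at 5.55 ± 2.18 and Il1a at 2.92 ± 2.50 closed the order. Neighbours overlapped in their libraries except at 2 steps, from Il1r2 to Il1r1 and from Il1rn to Il1rap. In SP2509 Il33 was again highest at 90.0 ± 18.8 (SD, n = 4 units), and Il1rn came next by its mean at 51.2 ± 29.7. By library, Il1rn took place 5 or 6 of 10 in vehicle, places 1, 2, 3 and 3 in SP2509 replicates 1 to 4, and places 6 and 4 in replicates 5 and 6. Il1r2 followed at 45.9 ± 25.7, and Il1rl1 was lowest at 2.46 ± 0.512. In SP2509 all neighbours in the order of means overlapped except Il1b (14.1 ± 2.96) and Il1rap (8.03 ± 1.69). Exon length was merged over all annotated transcripts, so genes with several starts or long alternative ends are understated.

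The members sit in 3 chromosomal groups. On chromosome 1, between 40074079 and 40551705, lie Il1r2, Il1r1, Il1rl2 and Il1rl1 with Il18r1 and Il18rap, the chains of the IL-18 receptor. All 6 had a log2 fold change below 0, from -1.04 (Il1rl1) to -0.09 (Il18r1), where 48.1% of all tested genes did, and none was called. The sign of Il18r1 turned under quantile normalization (0.11), without vehicle replicate 4 or SP2509 replicate 1 and in the 9-library covariate fit, and that of Il18rap turned over the 8 libraries that share a number. On chromosome 2, between 24153161 and 24351494, Il1rn lies next to the IL-36 genes, which did not share its average: Il36a stood at 0.28, Il36b at 0.03, Il36rn at 0.01 and Il36g at -0.53. Il1a and Il1b lie together on the same chromosome between 129299610 and 129371139, both above 0. Neighbouring genes are not independent observations.

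**Figure D4:**
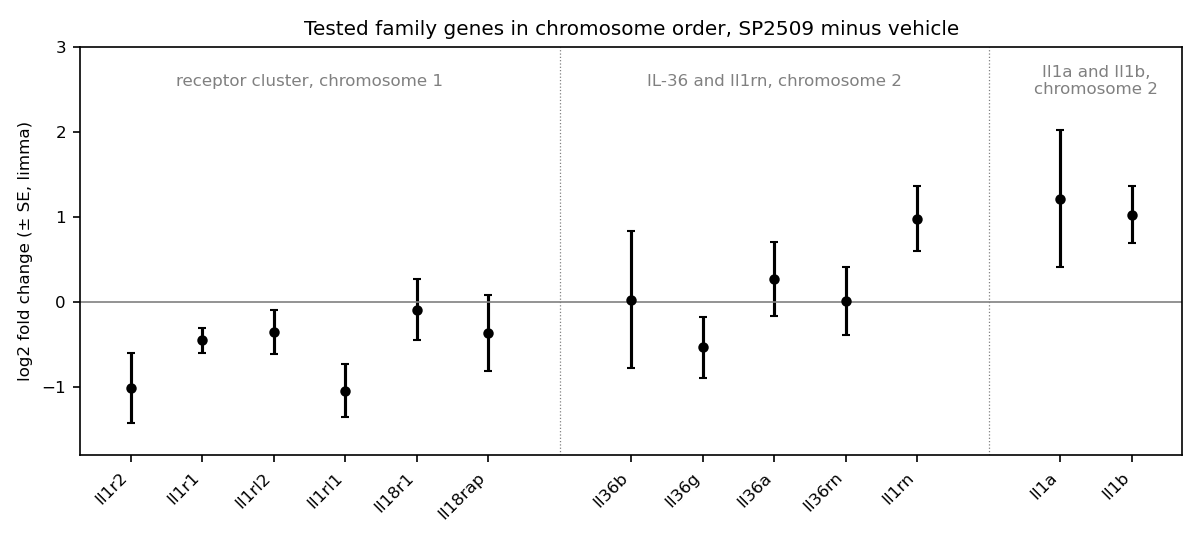
Log2 fold change with its SE (limma, 10 libraries, vertical axis) for the 13 tested family genes in chromosome order (horizontal axis, not to scale). The 6 genes of the chromosome 1 receptor cluster lie below 0, Il18r1 and Il18rap with signs that turned in other fits, while Il1rn, Il1a and Il1b are the highest on chromosome 2.

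Of the other family genes, 8 were tested and 0 were called by limma, with 0 at an unadjusted p under 0.05. Il36g, an IL-36 receptor agonist of keratinocytes, had the most normalised reads of them, with a vehicle mean of 515 ± 207 (SD, n = 4) and an SP2509 mean of 361 ± 152 (n = 4 units). Its log2 fold change over the 10 libraries was -0.53 ± 0.36 (SE, adjusted p by limma = 0.354). The inhibitory genes were nearer to 0, with Il18bp, which binds IL-18, at -0.18 and the receptor Sigirr at -0.02. Il18rap had -0.36. Il1f10 had 7 vehicle and 11 SP2509 reads and Il1rapl2 had 10 and 19, both under the filter.

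Among genes of the inflammasome and of cytokine processing, 19 were tested, 2 fell and 0 rose. The sensor gene Nlrp1b ran from 38.4 to 57.5 in the vehicle libraries and from 6.11 to 21.2 in the SP2509 libraries, without overlap. It fell by 1.78 on the log2 scale (SE 0.36, limma adjusted p = 0.0164, with the pairs merged 0.0718), from 47.2 ± 8.18 (SD, n = 4) to 13.9 ± 6.15 (n = 4 units). The pore gene Gsdmd, through which mature IL-1 beta leaves cells, ran from 380 to 565 in vehicle and from 236 to 363 in SP2509. It fell by 0.63 (SE 0.15, limma adjusted p = 0.0259, merged 0.0805). Casp1, the gene of the processing caspase, had a log2 fold change of 0.08 (limma adjusted p = 0.881) and the adaptor gene Pycard -0.23 (0.582). The median over the 19 was -0.22. Without vehicle replicate 1, 0 of the 19 were called, and without SP2509 replicate 6, 4 were lower. The call of Gsdmd also ended when vehicle replicate 2, vehicle replicate 4, SP2509 replicate 3 or SP2509 replicate 4 was left out. Over all tested genes 4.15% were called lower. Nlrp1b has close paralogs in the mouse, among which the counting could split reads.

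Among 24 tested genes of receptor-proximal signalling and NF-kB, 1 rose and 0 fell, a share near the 4.95% of all genes called higher. Ube2n, the ubiquitin-conjugating enzyme that serves TRAF6, rose by 0.58 (SE 0.11, limma adjusted p = 0.0137, with the pairs merged 0.0751), from 510 ± 53.3 (SD, n = 4) to 756 ± 86.2 normalised reads (n = 4 units). The adaptor gene Myd88 had a log2 fold change of -0.07 (limma adjusted p = 0.816), and the list's median was -0.05. Without SP2509 replicates 4 and 5, the libraries with gland signal, 0 of the 24 were called, and with equal totals 0 were higher and 5 lower, in a fit that called 8.44% of all genes lower. Without SP2509 replicate 6, 1 was higher and 4 lower.

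Among NF-kB feedback and IL-1 target genes, 31 were tested, 3 rose and 0 fell, and 25 had a fold change above 0. Over all tested genes 4.95% were called higher and 51.9% had a fold change above 0. Bcl3, an atypical IkB protein, rose by 0.92 (SE 0.21, limma adjusted p = 0.024, merged 0.0989), from 182 ± 42.7 to 326 ± 88.0 normalised reads. Lcn2, the gene of the siderophore-binding lipocalin, rose by 2.85 (SE 0.73, limma adjusted p = 0.0347, merged 0.122), with 3.07 to 92.5 in vehicle and 127 to 376 in SP2509, highest in replicates 4 and 5. Nfkbib, an NF-kB inhibitor, rose by 0.43 (SE 0.11, limma adjusted p = 0.0359, merged 0.09). The list's median was 0.43. The count was 0 higher without vehicle replicate 1, 0 without SP2509 replicates 4 and 5, and 7 without SP2509 replicate 6, a fit that called 11.5% of all genes higher. Leaving out 1 library ended the call of Bcl3 for vehicle replicates 1 and 2, of Lcn2 for vehicle replicate 1 and for SP2509 replicates 1 to 5 in turn, and of Nfkbib for every library except SP2509 replicates 2 and 6. Of these genes, S100a8 and S100a9 also stand in the neutrophil list.

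Of 8 tested type 2 genes that respond to IL-33 through ST2, 1 rose and 0 fell, where 4.95% of all tested genes were called higher. Arg1, the arginase of type 2 macrophages and also of epithelium, rose by 3.03 on the log2 scale (SE 0.69, limma adjusted p = 0.0238, merged 0.0726). Vehicle libraries had 6.14 to 14.8 and SP2509 libraries 26.1 to 372, with replicates 4 and 5 the highest at 372 and 298. The call was lost without vehicle replicate 1, 2 or 3 (adjusted p by limma = 0.0647, 0.056 and 0.0534), which left 0 of the 8. The median of the list was -0.00.

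The 3 members with the highest mean of normalised reads, not divided by exon length, were Il33, Il1rl2 and Il1r1. For each, the genes whose log2 values ran most alike over 8 units (4 vehicle libraries, 4 SP2509 units) among 14585 genes are given as a description. Il33 ran most like Sla (Pearson r 0.949), Amd2 (0.947) and Ascc2 (0.935). Il1rl2 ran most like Ctdspl (0.986), Emp2 (0.984) and Sh3d19 (0.982), and Il1r1 most like Slx1b (0.973), Zfp951 (0.969) and Tspyl2 (0.968). The units share their group difference and the library content described above.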

How the data were processed

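Poly-A RNA of 4 vehicle and 6 SP2509 tongue libraries was measured. The deposited signal values are gene read counts divided by 1 size factor per library, read from the values themselves, since 100% of them lay within 0.01 of a whole multiple of what 1 read is worth in their library. HISAT2, featureCounts and mm10 are named, per the submitters' processing notes, without versions. The annotation release, strand setting and scaling tool were not given in the sources used here. Of 27151 IDs, 27113 matched a GENCODE M21 symbol (GRCm38, the same build as mm10), and IL-36 genes stand there under older symbols. A single read counts as 0.898 to 1.85 in vehicle libraries and as 0.727 to 0.873 in SP2509 libraries, which makes low vehicle values the coarser ones.

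Groups were compared by limma 3.58.1 (trend and robust, R 4.3.3), two-sided, on log2(value + 1), which understates changes of low genes, for the 17088 genes that reached a value of 10 in 4 or more libraries. P-values were adjusted over all of them by Benjamini-Hochberg, and a gene was called under 0.05. On the recovered whole reads edgeR 4.0.16 (quasi-likelihood) called 912 genes higher and 585 lower, and DESeq2 1.42.0 was a further alternative. Other alternatives were the pseudocount, the filter, rescaling, a replicate block, merged close pairs, libraries left out and a keratinocyte covariate. The scripts were tested on simulated data. Named were all 10 members, the other family genes in the table, the called genes of each pathway list (at most 4), and for the 3 members highest in normalised reads the 3 most alike genes. Csf3r, Ltf, Egfl7, S100a8, S100a9, Casp1, Pycard and Myd88 were added after their values were seen. The members and lists were chosen with earlier results of these data known. Upstream sequences are RefSeq's and matched 10 of 10 members. Python 3.11.15 with SciPy 1.17.1, pandas 2.3.3 and NumPy 2.4.6 made the tables, and matplotlib 3.10.9 the figures.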

Additional observations from a re-analysis of the deposited data

Results flagged for a closer look

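Among 50 groups of values of named genes examined for a library far from the rest, 1 was found. Nfkbib, an NF-kB inhibitor, had 299 normalised reads in SP2509 replicate 2, against 372 to 407 in the other 5 SP2509 libraries. Such a gap arises by chance in about 1 of 20 groups. Replicate 2 is one of a close pair, and the cause of the gap was not tested.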

How the results depend on the processing

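Over all genes, the number higher in SP2509 (846) became 553 without the filter, 296 with equal totals, 490 in limma without trend, 1606 in DESeq2, 219 without SP2509 replicates 4 and 5, 1643 with the keratinocyte covariate, 1436 with it on 9 libraries, and 0 with the close pairs merged in limma or summed in edgeR. The number lower (709) became 1442, 1394, 156, 1204, 1249 and 0 under equal totals, DESeq2, no SP2509 replicates 4 and 5, the covariate, the covariate on 9 libraries, and the merged or summed pairs. Leaving out 1 library gave 171 (without vehicle replicate 1) to 1971 (without SP2509 replicate 6) higher and 107 to 1488 lower, the same libraries at the ends. Of the members, 0 were higher and 0 lower. Quantile normalization called 1 higher (Il1b) and 1 lower (Il1r1), DESeq2 1 higher and 2 lower, equal totals 2 lower (Il1r1, Il1rl1), limma without trend 1 lower (Il1rl1), the covariate 4 lower and its merged and 9-library forms 2 lower each (Il1r2, Il1rl2). Leaving out 1 library gave 0 to 2 higher (Il1b and Il1rn without SP2509 replicate 6) and 0 to 0 lower. The causes were not tested, and in the 9-library form the groups did not overlap on the covariate. Vehicle and SP2509 replicates share numbers without a stated pairing, and same-numbered deviations correlated at -0.20 to 0.13. A replicate block over the 8 libraries that share a number gave 1158 higher and 813 lower genes, against 1578 and 1139 without the block on the same libraries, with 1 member (Il1rn) higher in both. Among the 10 members the sign of Il1rap alone turned, and it was called in none of these alternatives. Depth limits Il1a, Il1b, Il18 and Il1rl1 most, Il1a was not assessed where the filter was set at 20, and DESeq2 gave Il1a no adjusted p.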
